A study of Homo sapiens with 6 samples.

Results

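The interferon-stimulated genes are the genes that cells switch on when interferon reaches them, and 41 of them were followed here in SNU638 cells, a human gastric cancer cell line. They form a list of gene names, matched to array probes by gene symbol, and no measured value enters the rule, although the list was drawn up with earlier results of these data known. A probe was found for 40 of the 41 genes, while STAT2 was not analysed here. For 39 genes a probe lay above background on at least 3 of the 6 arrays, and these 39 were part of the 9905 genes so measured. The remaining gene, SAMHD1, which encodes an enzyme that breaks down deoxynucleotides, had a single probe that was above background on no array.

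The cell populations compared are called LAP2beta and mock in the labels. LAP2β cells were SNU638 cells made to overexpress LAP2β, an inner nuclear membrane protein that is one product of the gene TMPO. They had been co-transfected with the plasmids pCMV-SPORT6-LAP2β, whose CMV promoter drives the insert, and pIRES-Neo, and selected with G418. Mock cells had been made at the same time with the empty control vector. The labels name no further agent for either population. Each population gave 3 RNA samples, on 1 Illumina Human HT-12 bead chip array each, numbered 1 to 3 in the labels. The sources do not say which clone was arrayed, nor whether the 3 samples of a population came from separate cultures, and the p-values therefore reflect nothing beyond the spread among these 6 arrays.

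Interferons are secreted proteins that bind receptors on the cell surface and activate the kinases JAK1 and TYK2. These kinases phosphorylate STAT2, which joins with IRF9 in a complex that enters the nucleus and binds a DNA element called the interferon-stimulated response element (ISRE). Another element, the gamma-activated site (GAS), serves the response to interferon gamma. The induced proteins block viruses at many steps and include sensors of foreign RNA, nucleases, and the ubiquitin-like protein ISG15 with the enzymes that attach and remove it. Many epithelial cancer lines express a part of this set with no interferon added.

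Promoter sequences were available for 34 of the 41 genes, from the RefSeq table of GRCh38.p14, as windows of 250 bases before and 50 bases after each annotated start. IFIT2, IFITM2, OAS2, OASL, MX2, IRF7 and USP18 were the 7 without one. The ISRE core was searched as GAAANNGAAA and GAS as TTCNNNGAA, each on both strands, where N is any base. The ISRE core was present in 23 of the 34 genes, against 4.38% of the 27305 genes in the table, and 15 of the 34 held it at least 2 times. GAS letters were present in 9 of the 34, against 9.38% of all genes. In 4 genes an ISRE match overlapped a GAS match, 4 genes had GAS letters only and 7 had neither.

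Promoters are shown for IFIT3 and IFI44, which differed between the populations without pairing of the arrays, and for the relatives next to them, whose values were unlike theirs or less clear. All lie on the plus strand, run from 190 bases before to 6 bases after the start base, and carry the ISRE core matches in capitals (a match on the other strand reads TTTC, 2 bases, TTTC). IFIT3 has 2 annotated starts, 4532 bases apart. IFI44 has a second start 42 bases further on, whose window overlaps the one shown.
IFIT3 (chr10:89327807-89328002): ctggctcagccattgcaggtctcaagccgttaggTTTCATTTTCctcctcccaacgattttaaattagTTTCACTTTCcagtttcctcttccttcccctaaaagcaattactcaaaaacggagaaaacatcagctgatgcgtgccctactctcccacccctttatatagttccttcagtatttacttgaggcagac
IFIT3, second start (chr10:89332339-89332534): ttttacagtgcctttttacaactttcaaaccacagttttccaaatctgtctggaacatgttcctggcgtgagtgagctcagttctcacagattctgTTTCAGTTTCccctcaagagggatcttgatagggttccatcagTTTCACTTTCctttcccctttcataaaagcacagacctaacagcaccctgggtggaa
IFIT1 (chr10:89392433-89392628): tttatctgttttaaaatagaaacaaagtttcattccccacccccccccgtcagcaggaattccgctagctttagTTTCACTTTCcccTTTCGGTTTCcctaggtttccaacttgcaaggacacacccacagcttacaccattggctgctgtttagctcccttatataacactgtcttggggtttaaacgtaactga
IFIT5 (chr10:89414378-89414573): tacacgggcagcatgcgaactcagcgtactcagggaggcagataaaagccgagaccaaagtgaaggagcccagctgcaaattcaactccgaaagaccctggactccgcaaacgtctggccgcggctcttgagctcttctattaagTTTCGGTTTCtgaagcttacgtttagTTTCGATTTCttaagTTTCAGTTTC
IFI44 (chr1:78649599-78649794): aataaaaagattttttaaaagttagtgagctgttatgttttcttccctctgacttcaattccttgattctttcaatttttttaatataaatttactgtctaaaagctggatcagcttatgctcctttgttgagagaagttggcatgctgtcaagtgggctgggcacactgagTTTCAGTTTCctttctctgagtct
IFI44L (chr1:78620258-78620453): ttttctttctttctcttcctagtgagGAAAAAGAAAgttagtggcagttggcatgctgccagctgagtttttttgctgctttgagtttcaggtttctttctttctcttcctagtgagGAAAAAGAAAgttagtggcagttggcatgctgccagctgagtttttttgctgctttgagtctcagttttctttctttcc

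The matches nearest the start begin 103 bases before it in IFIT1 and 4 bases before it in IFIT5, which holds 3 matches within 45 bases. In IFI44 the single match begins 18 bases before the first start. In IFI44L both matches have the same letters and lie on the plus strand, 164 and 73 bases before the start. A match is a description of the letters and not evidence of a bound site.

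On the arrays other than mock array 3, 44.1% to 46.6% of the probes lay above background, by a detection p-value under 0.01. Detection on mock array 3 was taken from the ranks of its signals. The signal medians before normalization were 190 to 196 on LAP2β arrays and 192 to 200 on mock arrays. The signals were quantile normalized and log2 transformed, and limma compared the populations over the 13323 probes above background on at least 3 arrays, with Benjamini-Hochberg adjustment of p over all of them. A gene was read from its brightest such probe, and signals of different genes are not compared, because probes differ in brightness. The TMPO probe above background is not annotated to the β form and did not pass the test, with 9.76 ± 0.12 in LAP2β cells and 9.79 ± 0.21 in mock cells (log2 signal, SD, n = 3 each; limma, adjusted p = 0.943). The single probe annotated to a transcript of the β form was above background on no array, so the arrays do not check the labels. Apart from the arrays, the study checked the overexpression in SNU638 cells by western blotting and real-time PCR. Epithelial markers were above background for 5 of 5 genes, of which 0 passed in this fit and 2 rose in a fit that paired arrays of the same replicate number, CDH1 by 0.74 on the log2 scale (limma's adjusted p = 3.08e-04 with pairs, 0.0579 without) and KRT8 by 0.42 (0.0094 with pairs, 0.126 without). Haematopoietic markers were for 3 of 6 (CD68, HLA-DRA and LYZ, of which 0 passed in either fit described here) and fibroblast and endothelial markers for 0 of 6. The sources used here name neither slides nor scan dates.

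Array number bore on nearly every result. Over the 13323 probes, the deviations of LAP2β and mock arrays from the means of their populations correlated by 0.544, 0.228 and 0.368 for numbers 1, 2 and 3, and for this reason same-numbered arrays were treated as pairs in a second limma fit, with the array number as a block (the paired fit). What the number stands for is not given, and whether it marks a shared culture, day or chip was not tested. The pairing was thus chosen from these same arrays, and the p-values of the paired fit depend on that choice. Both fits are given, since they differ for many of the genes.

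Most of the interferon-stimulated genes had a higher mean in LAP2β cells, but few differed beyond the spread between arrays. The log2 fold change of LAP2β over mock was above 0 for 37 of 39 genes, against 4745 of all 9905 genes. Its median was 0.33, against a median of -0.0068 over all 9905 genes. In the fit without pairs 2 genes rose (5.13% of 39, against 1.17% of all genes), namely IFIT2 and IFIT3. IFI44 alone fell, which is 2.56% of 39 against 0.616% of all genes. In the paired fit 18 rose (46.2%, against 3.55% of all genes) and 1 fell (2.56%, against 2.88%). Of the 18, OAS2 and MX2 were above background on only 2 and 1 of the mock arrays. In bulk RNA, more cells that express a gene and more RNA per cell cannot be told apart. The unadjusted p was under 0.05 in the higher direction for 13 genes (33.3%, against 6.68%).

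The 6 genes whose 3 LAP2β arrays all lay above the 3 mock arrays were IFIT1, IFIT2, IFIT3, OASL, RIGI and ISG15, which is 15.4% of 39, against 9.27% of all genes. On the dimmer OASL probe the groups overlapped. On the brightest probe of each gene, LAP2β was above mock in all 3 same-numbered pairs for 28 genes (71.8%, against 20.9%). The dimmer measured probes of UBE2L6, IRF7 and PARP9, which are among the 28, were not. For 19 of the 39 genes the fold change was smaller than the mean SD within the groups. Without LAP2β array 1 the median log2 fold change dropped to 0.063, and 28 of 39 genes stayed above 0.

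**Figure D1:**
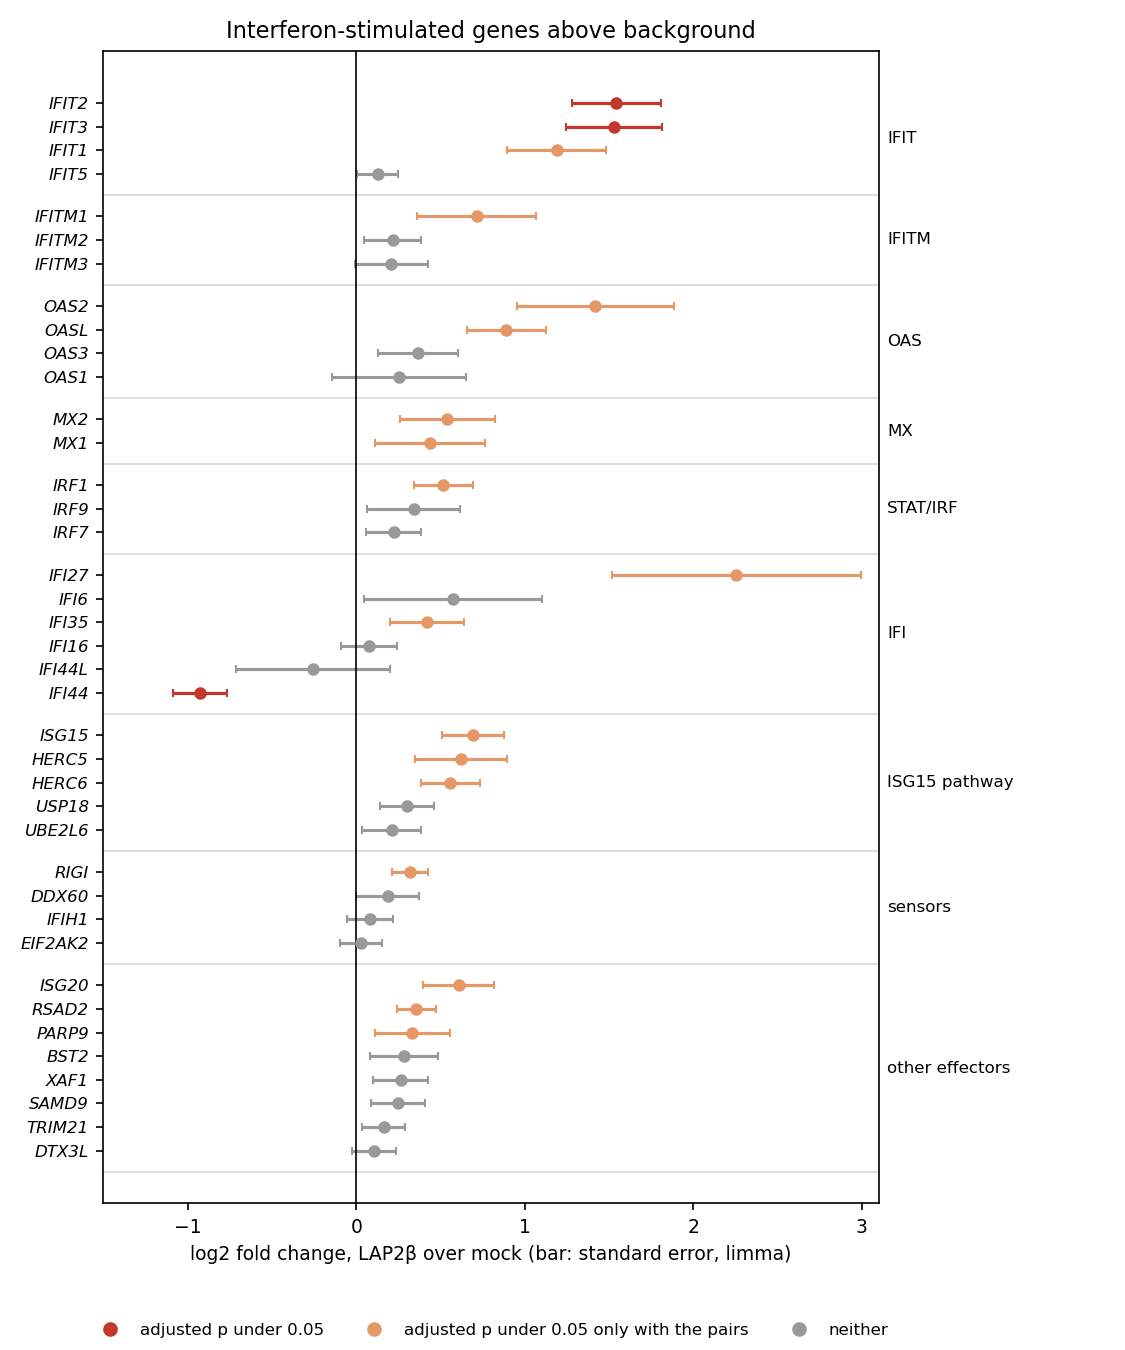
Log2 fold change of LAP2β over mock for the 39 measured genes, by family, with its standard error from limma (bars). The 3 red points passed an adjusted p of 0.05 without pairs, the orange points only in the paired fit, and IFI44 and IFI44L are the only points left of 0.

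The IFIT family had the highest median log2 fold change of the families compared here, and it was split. IFIT proteins bind foreign or unusually capped RNA and hinder its translation, and the 4 genes lie side by side on chromosome 10. IFIT2, IFIT3 and IFIT1 were all higher on every LAP2β array than on any mock array, whereas IFIT5 was not. The median over the 4 genes was 1.36.

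IFIT2 had log2 signals of 12.14, 11.88 and 11.42 on LAP2β arrays 1, 2 and 3, and 10.93, 10.16 and 9.71 on mock arrays 1, 2 and 3. The lowest LAP2β array was above the highest mock array, and within each population array 1 was highest and array 3 lowest. The means were 11.81 ± 0.36 in LAP2β cells and 10.27 ± 0.62 in mock cells (SD, n = 3 each), a log2 fold change of 1.54 (SE 0.26), or 2.92-fold, with an adjusted p of 0.0126 from limma and 2.57e-06 in the paired fit.

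IFIT3, whose protein binds and stabilises IFIT1, had 11.03, 10.38 and 9.89 on LAP2β arrays against 9.47, 8.83 and 8.41 on mock arrays. The same-numbered pairs were nearly equally far apart, by 1.56, 1.56 and 1.48. Its log2 fold change was 1.53 (SE 0.29), or 2.89-fold, with an adjusted p of 0.0217 from limma and 2.05e-07 in the paired fit. Of its other measured probes, one gave 1.16 (adjusted p = 0.0455) and the dimmest gave 0.73 (adjusted p = 0.0827, and 0.0036 in the paired fit).

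IFIT1, which binds RNA that lacks the normal methylated cap, had 12.45, 11.82 and 11.33 on LAP2β arrays against 11.33, 10.46 and 10.24 on mock arrays. LAP2β array 3 and mock array 1 were at almost the same level, so the groups were only just apart. The log2 fold change of 1.19 (SE 0.29) did not pass without pairs (adjusted p = 0.0800) and passed in the paired fit (adjusted p = 3.93e-06).

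IFIT5, which binds RNA with a triphosphate end, had 8.54, 8.15 and 8.13 on LAP2β arrays against 8.26, 8.15 and 8.03 on mock arrays. The groups overlapped, and the log2 fold change was 0.13 (SE 0.12, adjusted p = 0.705 from limma, and 0.423 in the paired fit). The promoter of this gene held 3 ISRE core matches, against 2 in that of IFIT1 and 2 at each of the 2 starts of IFIT3.

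Both IFIT calls of the fit without pairs ended under some settings. Without LAP2β array 2 the adjusted p was 0.0739 for IFIT2 and 0.0891 for IFIT3, and without mock array 2 it was 0.0908 and 0.135. Without mock array 3 that of IFIT3 was 0.0637. With the trend and robust settings of eBayes it was 0.172 for IFIT2 and 0.205 for IFIT3, after neqc background correction 0.0784 and 0.0985, and after normexp 0.0599 for IFIT3. With any 1 array left out their log2 fold changes stayed between 1.23 and 1.88.

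**Figure D2:**
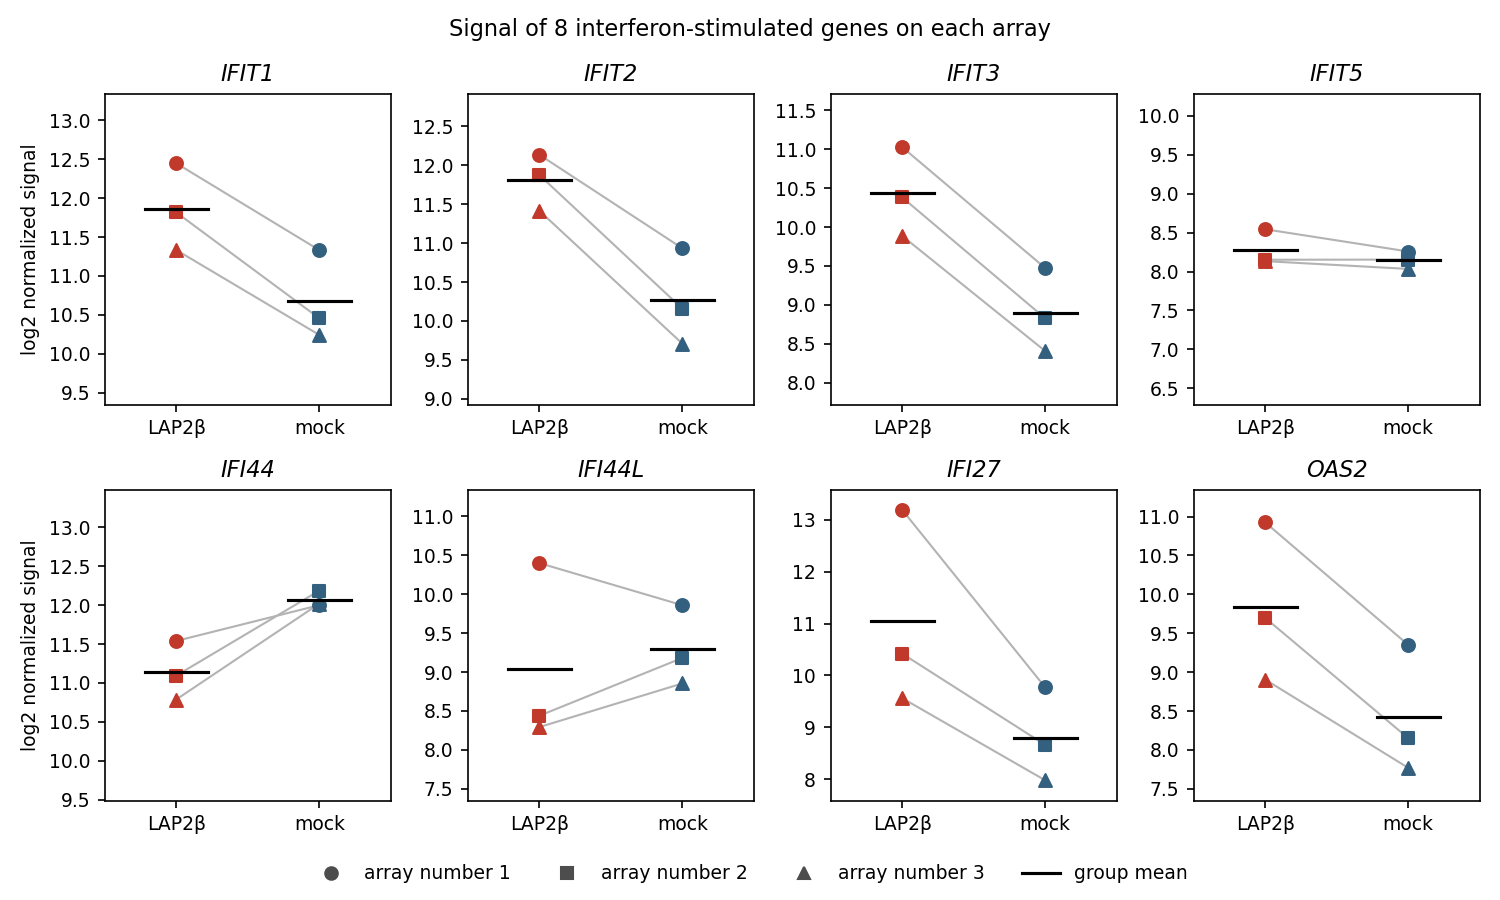
Log2 normalized signal of 8 genes on each LAP2β array (red) and mock array (blue), with group means (black bars) and grey lines joining same-numbered arrays. Each panel spans 4 log2 units, or 6 for IFI27. IFIT1, IFIT2 and IFIT3 are higher in LAP2β cells on all 3 pairs, IFI44 is lower on all 3, and IFI44L crosses.

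IFI44 went the other way from nearly all the other genes. It encodes a cytoplasmic protein of uncertain function that rises after interferon, and it lies on chromosome 1 next to its relative IFI44L. The study also singled out IFI44 on these same arrays, so its call is not independent of that choice. Log2 signals were 11.54, 11.09 and 10.79 on LAP2β arrays against 12.00, 12.19 and 12.02 on mock arrays. Every LAP2β array was below every mock array. The mock arrays were close together, while among the LAP2β arrays number 1 was again highest and number 3 lowest. Its log2 fold change was -0.93 (SE 0.16), with an adjusted p of 0.0127 from limma and 6.57e-04 in the paired fit. Without LAP2β array 2 the log2 fold change was -0.91 (adjusted p = 0.0742), without mock array 2 it was -0.87 (adjusted p = 0.0991), and after neqc -0.97 (adjusted p = 0.0752).

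IFI44L had 10.40, 8.44 and 8.29 on LAP2β arrays against 9.86, 9.18 and 8.85 on mock arrays. The difference of LAP2β minus mock was 0.54 in pair 1, but -0.74 in pair 2 and -0.56 in pair 3. The log2 fold change of -0.25 (SE 0.46, adjusted p = 0.865 from limma) changed sign with single arrays left out, since it was 0.049, 0.12 and 0.026 without LAP2β array 2, LAP2β array 3 or mock array 1.

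IFI27, which encodes a small mitochondrial protein, had the largest fold change of all 39 genes and also the largest spread. Its log2 signals were 13.19, 10.42 and 9.56 on LAP2β arrays against 9.77, 8.66 and 7.98 on mock arrays. LAP2β array 1 stood far above the rest, and LAP2β array 3 was below mock array 1, so the groups overlapped. The log2 fold change of 2.26 (SE 0.74), or 4.78-fold, had an adjusted p of 0.191 from limma and 1.48e-04 in the paired fit, in which the pairs differed by 3.42, 1.76 and 1.58.

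IFI35, a protein that binds NMI, had 12.19, 11.24 and 11.43 on LAP2β arrays against 11.52, 11.14 and 10.93 on mock arrays, a difference of 0.42 (log2, adjusted p = 0.448, and 0.0332 in the paired fit). IFI6, a small membrane protein with antiviral activity, changed by 0.57 (log2, adjusted p = 0.695), but by -0.19 without LAP2β array 1. Its dimmer probe gave 0.75 (adjusted p = 0.614, and 0.0237 in the paired fit), so its 2 probes fell on opposite sides of the threshold in the paired fit. IFI16, a DNA sensor, had 0.077 (adjusted p = 0.891).

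Among the OAS genes, whose enzymes make the short adenylate chains that activate RNase L, OAS2 and OASL had the largest log2 fold changes. OAS2 had 10.93, 9.70 and 8.91 on LAP2β arrays against 9.35, 8.15 and 7.77 on mock arrays. Each LAP2β array was well above the mock array of its number, but LAP2β array 3 was below mock array 1. Its log2 fold change was 1.42 (SE 0.47, adjusted p = 0.191 from limma, and 2.71e-06 in the paired fit). This probe was above background on 3 LAP2β arrays and only 2 of the mock arrays. The LAP2β arrays alone were thus enough to pass the filter on dim probes, while the mock arrays alone were not. The other OAS2 probes gave 0.31, 0.39 and 0.45, each above background on 1 LAP2β array and no mock array, so they were not fitted.

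OASL, a relative of these enzymes that has lost the catalytic activity and promotes RIG-I signalling, had 10.61, 10.47 and 10.11 on LAP2β arrays against 10.07, 9.53 and 8.91 on mock arrays. The groups did not overlap, by a small margin between LAP2β array 3 and mock array 1. Its log2 fold change was 0.89 (SE 0.24, adjusted p = 0.104 from limma, and 3.58e-04 in the paired fit), and its dimmer probe gave 0.66 (adjusted p = 0.151, and 8.10e-04 in the paired fit). On the dimmer probe the groups overlapped, with 8.55 on LAP2β array 3 and 8.68 on mock array 1.

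OAS3 and OAS1 did not pass in either fit. OAS3 had 11.27, 10.44 and 10.16 on LAP2β arrays against 10.56, 10.22 and 9.99 on mock arrays (log2 fold change 0.37; limma, adjusted p = 0.550, and 0.0606 in the paired fit). OAS1 had 9.95, 8.94 and 8.20 on LAP2β arrays against 9.55, 8.50 and 8.27 on mock arrays (log2 fold change 0.25, adjusted p = 0.839, and 0.178 in the paired fit). In both genes the arrays of the 2 populations overlapped. The other measured probes of OAS1 gave 0.49 (0.0176 in the paired fit) and 0.35 (0.0997 in the paired fit), so the probes of OAS1 disagreed on the paired call.

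The MX genes encode dynamin-like GTPases that trap viral particles. MX1 had 14.66, 13.55 and 13.17 on LAP2β arrays against 13.84, 13.35 and 12.87 on mock arrays, with a log2 fold change of 0.44 (SE 0.33, adjusted p = 0.612 from limma, and 0.0372 in the paired fit). MX2 had 8.98, 7.89 and 7.75 on LAP2β arrays against 8.05, 7.66 and 7.29 on mock arrays, with 0.54 (SE 0.28, adjusted p = 0.449, and 0.0157 in the paired fit). Both genes were higher in LAP2β cells in 3 of 3 pairs, most of all in pair 1, and their groups overlapped. MX2 was a dim gene, above background on 2 LAP2β arrays and 1 mock array.

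The IFITM genes encode membrane proteins that hinder the fusion of viruses with the cell. IFITM1 had 13.57, 12.40 and 12.30 on LAP2β arrays against 12.80, 11.84 and 11.48 on mock arrays (log2 fold change 0.72, SE 0.35, adjusted p = 0.423 from limma, and 2.40e-04 in the paired fit). IFITM2 had 15.01, 14.51 and 14.39 on LAP2β arrays against 14.74, 14.28 and 14.24 on mock arrays (log2 fold change 0.22, adjusted p = 0.632). IFITM3 had 15.37, 14.67 and 14.35 on LAP2β arrays against 14.89, 14.46 and 14.42 on mock arrays (log2 fold change 0.21, adjusted p = 0.732). Array 1 was highest and array 3 lowest in both populations for each of the IFITM genes, and the groups overlapped. IFITM2 and IFITM3 are close in sequence, and whether their probes tell them apart was not tested.

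Of the transcription factors IRF1, IRF9 and IRF7, 1 rose in the paired fit, in which 3.55% of all genes did. IRF1, an activator that is itself induced by interferon gamma, had 11.04, 10.57 and 10.41 on LAP2β arrays against 10.49, 9.93 and 10.05 on mock arrays (log2 fold change 0.52, SE 0.18, adjusted p = 0.206 from limma, and 0.0032 in the paired fit). IRF9, the DNA-binding partner of STAT2, had 12.78, 11.75 and 11.59 on LAP2β arrays against 12.11, 11.63 and 11.35 on mock arrays (0.34, adjusted p = 0.640, and 0.0753 in the paired fit). IRF7, which drives interferon alpha genes, had 11.25, 10.68 and 10.50 on LAP2β arrays against 10.64, 10.63 and 10.50 on mock arrays (0.22, adjusted p = 0.602). The groups of all these factors overlapped. For IRF7 the arrays of pairs 2 and 3 were nearly level, and the difference lay in pair 1. Its dimmer measured probe gave 0.085 (adjusted p = 0.690 in the paired fit), with LAP2β below mock in pairs 2 and 3.

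Read from their brightest probes, ISG15 and the enzymes around it were higher in LAP2β cells in 3 of 3 pairs for 5 of 5 genes. Of these 5, 3 rose in the paired fit, and the shares over all genes were 20.9% and 3.55%. ISG15, the ubiquitin-like protein itself, had 14.61, 14.14 and 13.88 on LAP2β arrays against 13.78, 13.58 and 13.20 on mock arrays. The groups did not overlap, and the log2 fold change was 0.69 (SE 0.18, adjusted p = 0.107 from limma, and 3.11e-04 in the paired fit).

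HERC5, the ligase that attaches ISG15, had 11.03, 10.71 and 10.13 on LAP2β arrays against 10.66, 9.85 and 9.50 on mock arrays (log2 fold change 0.62, adjusted p = 0.353, and 0.0021 in the paired fit). HERC6, its neighbour on chromosome 4 and the ISG15 ligase of mice, had 10.71, 10.41 and 10.05 on LAP2β arrays against 10.18, 9.70 and 9.62 on mock arrays (0.56, adjusted p = 0.176, and 0.0018 in the paired fit). In both genes LAP2β array 3 lay below mock array 1. UBE2L6, the conjugating enzyme for ISG15, had 0.21 (adjusted p = 0.658) and USP18, the protease that removes ISG15, had 0.30 (adjusted p = 0.459), and neither passed in the paired fit. The dimmer measured probe of UBE2L6 gave only 0.051 (adjusted p = 0.782 in the paired fit), with LAP2β below mock in pair 3, by -0.073.

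Of the RNA sensors, RIGI, which detects RNA with a triphosphate end, had 8.94, 8.63 and 8.63 on LAP2β arrays against 8.50, 8.43 and 8.31 on mock arrays. The shift was small but the groups did not overlap, with a log2 fold change of 0.32 (SE 0.11, adjusted p = 0.204 from limma, and 0.0421 in the paired fit). IFIH1, the sensor of long double-stranded RNA, had 0.081 (adjusted p = 0.852), the helicase DDX60 had 0.19 (adjusted p = 0.717) and EIF2AK2, the kinase that halts translation when it meets double-stranded RNA, had 0.027 (adjusted p = 0.955). None of these last genes passed in the paired fit.

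Among the other effectors 3 of 8 rose in the paired fit, in which 3.55% of all genes did. ISG20, an RNA exonuclease, had 11.28, 11.19 and 10.73 on LAP2β arrays against 10.91, 10.51 and 9.97 on mock arrays (log2 fold change 0.61, adjusted p = 0.218, and 0.0017 in the paired fit). RSAD2, or viperin, which makes a chain-terminating nucleotide, had 8.39, 8.27 and 8.02 on LAP2β arrays against 8.02, 7.74 and 7.84 on mock arrays (0.36, adjusted p = 0.191, and 0.0345 in the paired fit). PARP9 had 10.86, 10.21 and 9.93 on LAP2β arrays against 10.38, 9.95 and 9.68 on mock arrays (0.33, adjusted p = 0.565, and 0.0377 in the paired fit). The groups of all these overlapped, and the dimmer PARP9 probe gave only 0.046 (0.841 in the paired fit).

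The remaining effectors passed in neither fit. BST2, or tetherin, which holds budding virus at the cell surface, had a value of 0.28 (log2 fold change, adjusted p = 0.591) and XAF1, a promoter of apoptosis, 0.26 (adjusted p = 0.528). SAMD9 had 0.25 (adjusted p = 0.543), the antibody receptor TRIM21 0.16 (adjusted p = 0.630) and DTX3L, the partner of PARP9, 0.11 (adjusted p = 0.777). All these values are above 0.

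The members moved together from array to array inside each population. Array 1 was the highest of its population in both populations for 36 of the 39 genes (92.3%, against 20.6% of all genes), and array 3 was the lowest in both for 32 (82.1%, against 14.1%). The median log2 signal over the 39 genes was 11.03, 10.42 and 10.11 on LAP2β arrays 1, 2 and 3, and 10.38, 9.85 and 9.62 on mock arrays 1, 2 and 3. LAP2β array 3 therefore lay below mock array 1, while each LAP2β array was above the mock array of its own number. The median deviation of all 9905 genes from their own means lay between -0.0079 and 0.0075 on every array.

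Between arrays 1 and 3 the median drop of the 39 genes was 0.75 in LAP2β cells and 0.58 in mock cells, so arrays of one population differed by more than the median difference of 0.33 between populations. Across the 39 genes the difference between arrays 1 and 3 in LAP2β cells was related to that in mock cells (Pearson 0.73, Spearman 0.66), with the genes sharing arrays and therefore not independent. Over all 9905 genes the Pearson value was 0.53. The difference was larger in LAP2β cells for 33 of the 39 genes, and it was largest for IFI27, at 3.63 in LAP2β cells and 1.79 in mock cells. IFI6, IFI44L and OAS2 came next in LAP2β cells, at 2.42, 2.11 and 2.02.

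**Figure D3:**
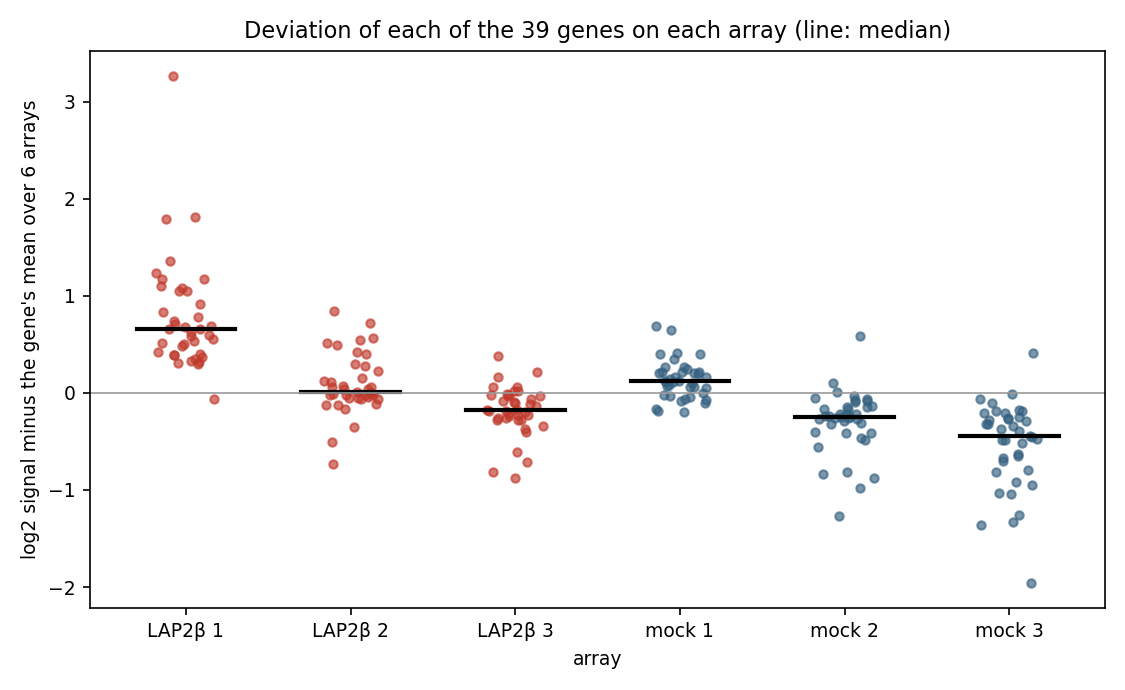
Deviation of each of the 39 genes from its own mean over the 6 arrays (log2), LAP2β arrays red and mock arrays blue, with the median as a black line. Array 1 has the highest and array 3 the lowest median in both populations, and 38 of the 39 genes lie above their mean on LAP2β array 1 and 1 on mock array 3.

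**Figure D4:**
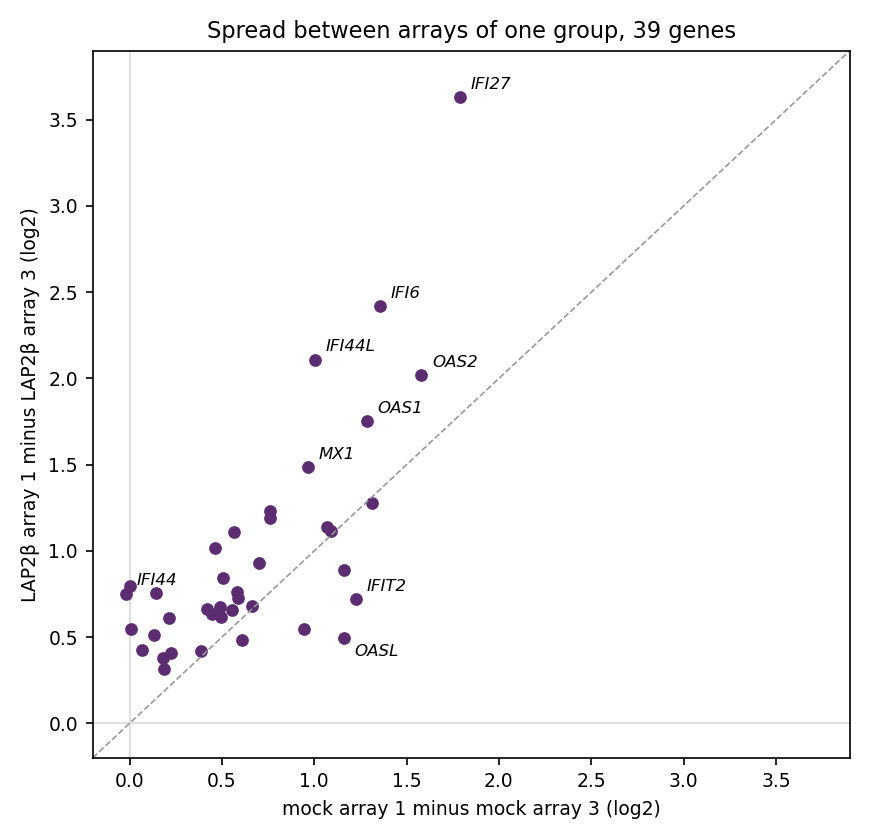
Log2 difference between arrays 1 and 3 within mock cells (horizontal axis) and within LAP2β cells (vertical axis), 1 point per gene, with the line of equality dashed. In LAP2β cells all 39 genes lie above 0, and 33 lie above the dashed line.

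By pairs, the median difference was 0.53 in pair 1, with 38 of 39 genes higher in LAP2β cells, 0.22 in pair 2 with 32 of 39, and 0.24 in pair 3 with 32 of 39. Over all genes 48.7% to 49.4% were higher in LAP2β cells in a pair. The families took different parts in this. On LAP2β array 2 the IFIT genes had a median deviation of 0.63 and the IFI genes one of -0.26, and on mock array 2 these were -0.83 and -0.13.

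Genes with and without the ISRE core rose in similar shares, which was not tested. Of the 23 measured genes with a match, 10 rose in the paired fit (43.5%) and the median log2 fold change was 0.33. Of the 9 without one, 4 rose (44.4%) and the median was 0.32. The 7 genes with no promoter sequence are in neither count. Of these, IFIT2, OAS2, OASL and MX2 rose in the paired fit, while IFITM2, IRF7 and USP18 did not. The 4 genes with 3 matches were IFIT5, IFIH1, IFI6 and HERC5, with log2 fold changes of 0.13, 0.081, 0.57 and 0.62, of which that of HERC5 passed in the paired fit. RIGI and HERC6 rose in the paired fit with neither element in the window.

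The rest of the pathway was read from lists of ligands, receptors, regulators, sensors and further induced genes. None of the 21 interferon genes with a probe was above background on 3 arrays, and 20 were so on no array. IFNA1 was so only on mock array 3, where detection was taken from signal ranks and not from a measured detection p-value. Interferon protein was not measured. Over the other lists 57 genes were measured, of which 1 rose and 0 fell without pairs by limma, against 116 and 61 of all 9905 genes. At an unadjusted p under 0.05 these counts were 14 and 2, against 662 and 702 of all 9905 genes. The 1 gene that rose by the adjusted p is DHX58, which passed the filter through its LAP2β arrays. Of the same 57 genes 8 rose and 2 fell in the paired fit, shares to be read beside the percentages of all genes given above.

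Of the receptors and kinases, 8 genes were measured and their log2 fold changes had a median of 0.097. IFNGR1, which binds interferon gamma, had 11.15, 11.29 and 11.08 on LAP2β arrays against 10.86, 10.80 and 10.68 on mock arrays (0.39, adjusted p = 0.0748 from limma, and 0.0136 in the paired fit). IFNGR2, the other chain of the same receptor, had 12.42, 12.30 and 12.31 on LAP2β arrays against 12.96, 12.83 and 12.57 on mock arrays (-0.45, adjusted p = 0.0804, and 0.0090 in the paired fit). The chains of this receptor thus lay on opposite sides of 0, each with no overlap between the groups. The chains of the type I receptor, IFNAR1 and IFNAR2, had 0.20 (adjusted p = 0.521) and -0.032 (adjusted p = 0.925), and the kinases JAK1 and TYK2 had 0.18 (adjusted p = 0.465) and 0.0092 (adjusted p = 0.982).

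Of 6 negative regulators measured, SOCS3, which blocks JAK kinases, fell in the paired fit (-0.44, adjusted p = 0.235 from limma, and 0.0274 in the paired fit), and the median of the list was -0.024. Among 13 genes of nucleic acid sensing the median was 0.18. DHX58, or LGP2, a helicase of the RIG-I family that is itself induced by interferon, had 8.91, 8.50 and 8.40 on LAP2β arrays against 7.91, 7.67 and 7.57 on mock arrays. The probe was above background on 3 LAP2β arrays and only 1 mock array, so the LAP2β arrays alone carried it past the filter on dim probes. Its measured log2 difference of 0.88 (SE 0.14, adjusted p = 0.0077 from limma) rests on a mock group with 2 of 3 arrays not above background and is given as a description. STING1, the adaptor for cytosolic DNA, had 0.57 (adjusted p = 0.0741, and 8.72e-04 in the paired fit) and MYD88, the adaptor of most Toll-like receptors, 0.45 (adjusted p = 0.100, and 0.0050 in the paired fit). The adaptor MAVS, the kinase TBK1 and the transcription factor IRF3 had -0.030, -0.026 and 0.080 (adjusted p = 0.942, 0.935 and 0.772).

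Among 30 further interferon-induced genes measured, 25 had a log2 fold change above 0, against 4745 of all 9905 genes, and the median was 0.17. Without pairs 0 passed, although 6 had an unadjusted limma p under 0.05 in the higher direction, against 6.68% of all genes. In the paired fit 3.55% of all genes rose. In the paired fit LGALS3BP (0.38, adjusted p = 0.0212), SHISA5 (0.35, adjusted p = 0.0279), ZNFX1 (0.35, adjusted p = 0.0347) and TRAFD1 (0.32, adjusted p = 0.0438) rose. ZC3HAV1, which marks viral RNA for decay, had 0.13 on its brightest probe (adjusted p = 0.636 from limma), but its dimmer probes gave 0.67 (adjusted p = 0.0125) and 0.56 (adjusted p = 0.0166), so its probes disagree. The median deviation on array 1 was smaller in this list than the 0.66 and 0.12 of the 39 genes, with a median deviation of 0.32 on LAP2β array 1 and 0.045 on mock array 1, and those of the receptor list were 0.022 and 0.0053.

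**Figure D5:**
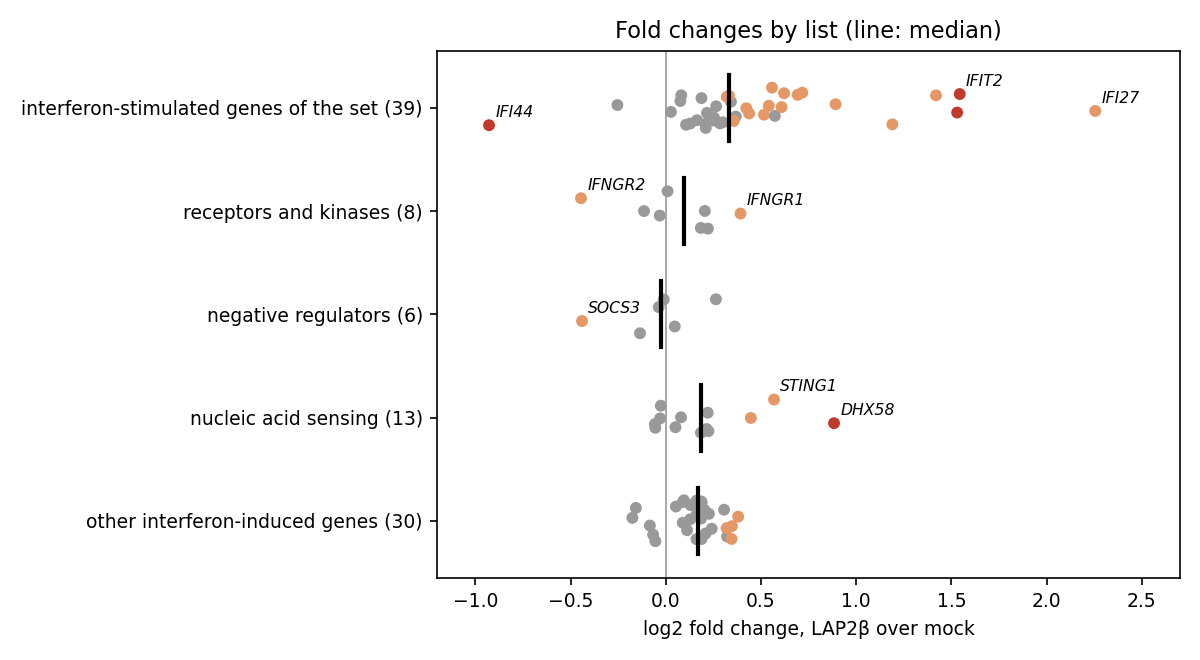
Log2 fold change of LAP2β over mock for the 39 interferon-stimulated genes and 4 further lists, 1 point per gene, with the number of genes in brackets and the median as a black line. Red points passed an adjusted p of 0.05 without pairs and orange points only in the paired fit; the medians are 0.33, 0.097, -0.024, 0.18 and 0.17 from top to bottom.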

How the data were processed

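RNA of 3 LAP2β and 3 mock samples was measured on Illumina bead arrays. After scanning, the authors used BeadStudio for processing and deposited intensity values before normalization and after quantile normalization, each with a detection p-value from BeadStudio. The deposited intensity values are linear. Whether background had been subtracted is not given in the sources used here. Columns of detection p-values that matched no sample (2 in all) were left unused. For mock array 3, detection was therefore taken from signal ranks, as the median over the other 5 arrays of the p-value belonging to each rank, a rule chosen after the data had been seen.

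Intensities before normalization were quantile normalized and log2 transformed with limma 3.58.1 in R 4.3.3. The probes detected (p under 0.01) on 3 or more of the 6 arrays were fitted with lmFit and eBayes and adjusted over all 13323 probes, and a gene was read from its brightest probe. Of 29377 probes, 27988 had 1 gene symbol in the platform annotation and 27819 of these matched the RefSeq gene table of GRCh38.p14, which updated old names. The 41 genes, the other lists and the rule for named genes (all 41 genes, and the genes of the other lists that passed in either fit) were chosen with earlier results of these data known.

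The array numbers were taken to pair the samples because all 3 correlations of same-numbered arrays' deviations exceeded 0.1, and all 6 arrays matched their own number best. The paired fit has the number as a block. The fits were also run on simulated data, with noise drawn independently for each probe and array. Those data hold no shared effect of array number, so they do not test the pairing. Alternatives were other source tables, background corrections, normalizations, filters, variance models, thresholds, the methods' t-test, and arrays left out.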

Additional observations from a re-analysis of the deposited data

How the results depend on the processing

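In the fit without pairs 2 genes rose and 1 fell. The replicate block (the paired fit) gave 18 higher, and without the arrays numbered 1, 2 or 3 it gave 14, 19 and 27 higher. Of all 9905 genes these fits had 352, 371, 250 and 431 higher. It gave 2 lower without those numbered 1, against 288 of all genes. The paired fit leaves fewer residual degrees of freedom per probe than the fit without pairs. The fits with a pair left out leave fewer still, so their error rests mostly on the spread shared by all probes. None of the 39 genes was higher or lower (0 and 0) after neqc, at an adjusted p under 0.01, or by the methods' t-test after Benjamini-Hochberg adjustment. Before that adjustment the t-test had 2 of the 39 genes higher and 1 lower, against 601 and 657 of all 9905 genes. After normexp 1 was higher (86 of all genes), and 0 were when eBayes was run with trend and robust settings (121 of all genes). Leaving out each array in turn gave 0 to 10 higher and 0 to 1 lower, with 10 without mock array 1. Of all genes these fits had 54 to 152 higher and 19 to 64 lower, with 152 and 64 without mock array 1. The further pathway genes that rose numbered 1, with 8 higher and 2 lower in the paired fit, and 0 to 3 higher and 0 to 2 lower when each array was left out.

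The median log2 fold change of 0.33 was 0.19 to 0.41 under the other settings and 0.063 to 0.52 when each array was left out. Median scaling gave 0.20 and moved the median of all probes to -0.13, with 86 genes higher and 336 lower, against 116 and 61. Signs turned only for values that passed neither the fit without pairs nor the paired fit. Median scaling and no normalization gave -0.029 and -0.044 for IFI16 and -0.13 and -0.14 for EIF2AK2. The paired fit without arrays numbered 1 gave -0.028 for IFI16, -0.077 for EIF2AK2 and -0.0033 for DTX3L, and without those numbered 3 it gave 0.066 for TMPO. With each array left out, the ranges were -0.0057 to 0.20 for IFIT5, -0.078 to 0.43 for IFITM3, -0.21 to 0.67 for OAS1, -0.029 to 0.57 for IRF9, -0.93 to 0.12 for IFI44L, -0.19 to 1.02 for IFI6, -0.097 to 0.24 for IFI16, -0.049 to 0.20 for IFIH1, -0.12 to 0.14 for EIF2AK2, -0.028 to 0.24 for DTX3L and -0.12 to 0.082 for TMPO. With 3 arrays against 3, an exact permutation test of a single gene cannot go below p = 0.1, and the number of arrays limits the precision.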

Other observations

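The nearest measured genes on each side of the clustered families were read for comparison. Beside the IFIT cluster on chromosome 10, FAS, a death receptor, had -0.18 (log2 fold change; limma, adjusted p = 0.534) and SLC16A12 had 0.0067 (adjusted p = 0.986). Beside IFI44L and IFI44 on chromosome 1, DNAJB4 had 0.043 (adjusted p = 0.902) and PRKACB had 0.035 (adjusted p = 0.912). PTPN11 and RASAL1, beside the OAS genes on chromosome 12, had -0.14 and -0.24 (adjusted p = 0.558 and 0.495). Neither side of these 3 clusters therefore held a gene that passed.

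The MX cluster on chromosome 21 differed. RIPK4, a kinase of epithelial differentiation and the nearest measured gene beyond MX1, had a value of 0.94 (log2, SE 0.11; limma, adjusted p = 9.80e-04), above the 0.44 of MX1 and 0.54 of MX2. BACE2, a protease gene on the side of MX2, had 0.54 (SE 0.12, adjusted p = 0.0579, and 0.0041 in the paired fit). Beside the IFITM genes and IRF7 on chromosome 11, PGGHG had 0.34 (adjusted p = 0.154, and 0.0261 in the paired fit), DEAF1 on the other side had -0.28 (adjusted p = 0.427), and the genes between them that were measured lay within -0.037 and 0.16.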
